A study of Mus musculus with 82 samples.

Results

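Oxidative phosphorylation genes were followed through 13 mouse models of mammary tumour. The set was chosen by symbol alone: genes of the deposited table whose names begin with Nduf plus a, b, c, s or v, with Uqcr, with Cox4 to Cox8, or with Atp5, leaving out names that hold -ps, the mark of a pseudogene. The rule took 88 of the 47480 genes in the table, and 86 of them were counted often enough to be tested. By symbol these were 38 Nduf genes, mostly of complex I, 7 Ndufaf genes that help to assemble complex I, 8 Uqcr genes, mostly of complex III, 16 Cox genes, mostly of complex IV, and 17 Atp5 genes, mostly of the ATP synthase. Counts by family follow the symbol, so the Nduf genes include Ndufa4, a subunit of complex IV, and its relative Ndufa4l2. Cox7b2 and Cox8c were not tested, with 5 and 6 counts in all, each spread over 4 libraries.

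The respiratory chain of the inner mitochondrial membrane passes electrons from NADH (complex I) or succinate (complex II) through complex III to complex IV, where oxygen is reduced. The proton gradient built on the way drives the ATP synthase. Most subunits are encoded in the nucleus and imported, while a smaller number come from the mitochondrial genome. Genes of the mitochondrial genome were not in the tables used here. Some complex IV subunits come as pairs of isoforms, a widespread form and a form of muscle, lung or testis, and the NRF1, ETS-family and YY1 transcription factors are known to bind the promoters of many of these genes.

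RNA was sequenced from 82 untreated tumours, with 1 library each. BALB/c tumours were 2153 (n = 7 libraries), 2208 (n = 12), 2224 (n = 4), 2225 (n = 10), 2250 (n = 11), 2336 (n = 5), 4T1 (n = 5), 9263 (n = 7) and T12 (n = 3). FVB tumours were KPB1-A (n = 2), MMTV-NEU (n = 8) and MMTV-PYMT (n = 5), and C57BL/6 tumours were E0771 (n = 3). In MMTV-NEU and MMTV-PYMT the mammary tumour virus promoter, active in mammary epithelium, drives the Neu receptor or the polyoma middle T antigen, and 4T1 and E0771 are transplantable mammary carcinoma lines. The labels give no genotype for the numbered lines, T12 or KPB1-A, and do not say which libraries come from separate animals, so a p-value speaks only of the spread between the libraries at hand. Strain goes with model and cannot be told apart from it, except among the models of 1 strain.

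Counts per library summed to 14.44 to 132.7 M, with a median of 58.19 M, and the members together took 0.614% to 1.4% of them. Values are CPM, counts scaled to the size of the library, after TMM scaling, which sets the libraries to a common level. The 6 epithelial markers (Epcam, Krt8, Krt18, Cdh1, Krt5 and Krt14) were all lower in T12 and 4 of the 6 were lower in E0771, each against the other 12 models. Their summed level was 235.1 to 338.2 CPM in T12 and 374.3 to 465.6 CPM in E0771, and at least 1277 CPM in every library of the other models. Of 15 skeletal muscle markers, the summed level per library ran from 646.5 to 3826 CPM in E0771, and it reached 7593 CPM in 1 library of 2208, whose median was 27.6 CPM. In bulk tumours, fewer cells of a type and less RNA per cell cannot be told apart.

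Promoters are shown for Ndufa5, Uqcr11 and Atp5o, members outside the isoform pairs with wide ranges of model means. Those of Ndufs7 and Atp5d are shown because these genes lie near Uqcr11, and other members with wider ranges than theirs are not shown. RefSeq (GRCm38.p6) gave windows of 250 bases before to 50 after the transcript start for 73 of the 88 members. Both strands were searched for the palindromic word bound by NRF1, for the same word with an inner base left free (which includes it), for the word of YY1, and for CCGGAAG, the word of ETS factors. The NRF1 word was in 7 of the 73 members (9.59%) and in 1.07% of all 27025 genes with a window, its form with a free base in 23.3% of members and 5.19% of all genes, the ETS word in 20.5% and 9.93%, and the YY1 word in 8.22% and 0.995%. A match is a match of letters only. Capitals mark the matched words, as read on the printed strand, in the windows below, which run 5′ to 3′ on the gene's strand: chr10:80406772-80407071 (minus) for Uqcr11, with the ETS word; chr10:80249199-80249498 (plus) for Ndufs7, with the YY1 word; chr10:80142025-80142324 (plus) for Atp5d, which held none of these words; chr6:24527477-24527776 (minus) for Ndufa5 and chr16:91931581-91931880 (minus) for Atp5o, both with the NRF1 word with its free base.
Uqcr11: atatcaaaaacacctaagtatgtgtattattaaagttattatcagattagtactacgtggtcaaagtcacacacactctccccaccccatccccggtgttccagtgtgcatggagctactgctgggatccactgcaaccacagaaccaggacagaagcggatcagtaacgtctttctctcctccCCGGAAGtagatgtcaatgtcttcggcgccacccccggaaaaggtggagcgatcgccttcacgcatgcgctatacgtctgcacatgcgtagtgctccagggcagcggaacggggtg
Ndufs7: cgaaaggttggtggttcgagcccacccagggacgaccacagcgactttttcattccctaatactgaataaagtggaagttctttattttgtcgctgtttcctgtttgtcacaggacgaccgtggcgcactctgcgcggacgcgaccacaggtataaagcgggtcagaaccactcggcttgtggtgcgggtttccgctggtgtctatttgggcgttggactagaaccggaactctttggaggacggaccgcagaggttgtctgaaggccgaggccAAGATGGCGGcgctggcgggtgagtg
Atp5d: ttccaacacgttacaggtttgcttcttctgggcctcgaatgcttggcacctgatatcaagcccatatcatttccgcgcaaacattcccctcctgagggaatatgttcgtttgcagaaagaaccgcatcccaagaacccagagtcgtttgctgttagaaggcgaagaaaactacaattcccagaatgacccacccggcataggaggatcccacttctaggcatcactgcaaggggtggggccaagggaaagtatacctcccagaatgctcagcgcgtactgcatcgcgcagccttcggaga
Ndufa5: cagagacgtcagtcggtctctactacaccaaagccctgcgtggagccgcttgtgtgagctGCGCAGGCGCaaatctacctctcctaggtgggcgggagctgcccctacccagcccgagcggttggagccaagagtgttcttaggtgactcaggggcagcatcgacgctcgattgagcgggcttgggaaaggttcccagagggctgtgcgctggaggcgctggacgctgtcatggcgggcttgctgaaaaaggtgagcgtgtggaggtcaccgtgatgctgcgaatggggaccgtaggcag
Atp5o: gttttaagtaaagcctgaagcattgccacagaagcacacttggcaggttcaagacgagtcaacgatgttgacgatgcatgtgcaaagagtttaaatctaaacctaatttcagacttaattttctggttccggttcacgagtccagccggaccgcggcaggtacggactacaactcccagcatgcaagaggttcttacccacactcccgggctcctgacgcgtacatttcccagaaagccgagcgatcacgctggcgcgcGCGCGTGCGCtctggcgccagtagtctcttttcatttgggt

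Every member differed among the models, 86 of 86 by the F test of edgeR's quasi-likelihood fit at a Benjamini-Hochberg adjusted p under 0.05, but so did 98.2% of all 22847 genes tested. The size of the differences sets the members apart as a description. The spread from the lowest to the highest model mean had a median of 1.43 on the log2 scale over the members and 2.64 over all genes tested, and 19 of 86 members (22.1%) spanned more than 4-fold, against 67.2% of all genes. Among genes with a mean of at least 5 CPM, the medians were 1.403 and 2.112. The narrowest members were Atp5f1, the b subunit of the ATP synthase stalk (0.69), Ndufv2, a core iron-sulfur subunit of complex I (0.79), Atp5j, coupling factor 6 (0.86), Atp5a1, the alpha subunit of the catalytic head (0.86), and Ndufb8 of the complex I membrane arm (0.89). The widest were Ndufa5 of complex I (6.05), the isoform genes Cox6a2 (5.99), Cox6b2 (5.96), Ndufa4l2 (5.59), Cox4i2 (5.57), Cox8b (5.45) and Cox7a1 (4.29), and Uqcr11 (2.93) and Atp5o (2.91).

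**Figure D1:**
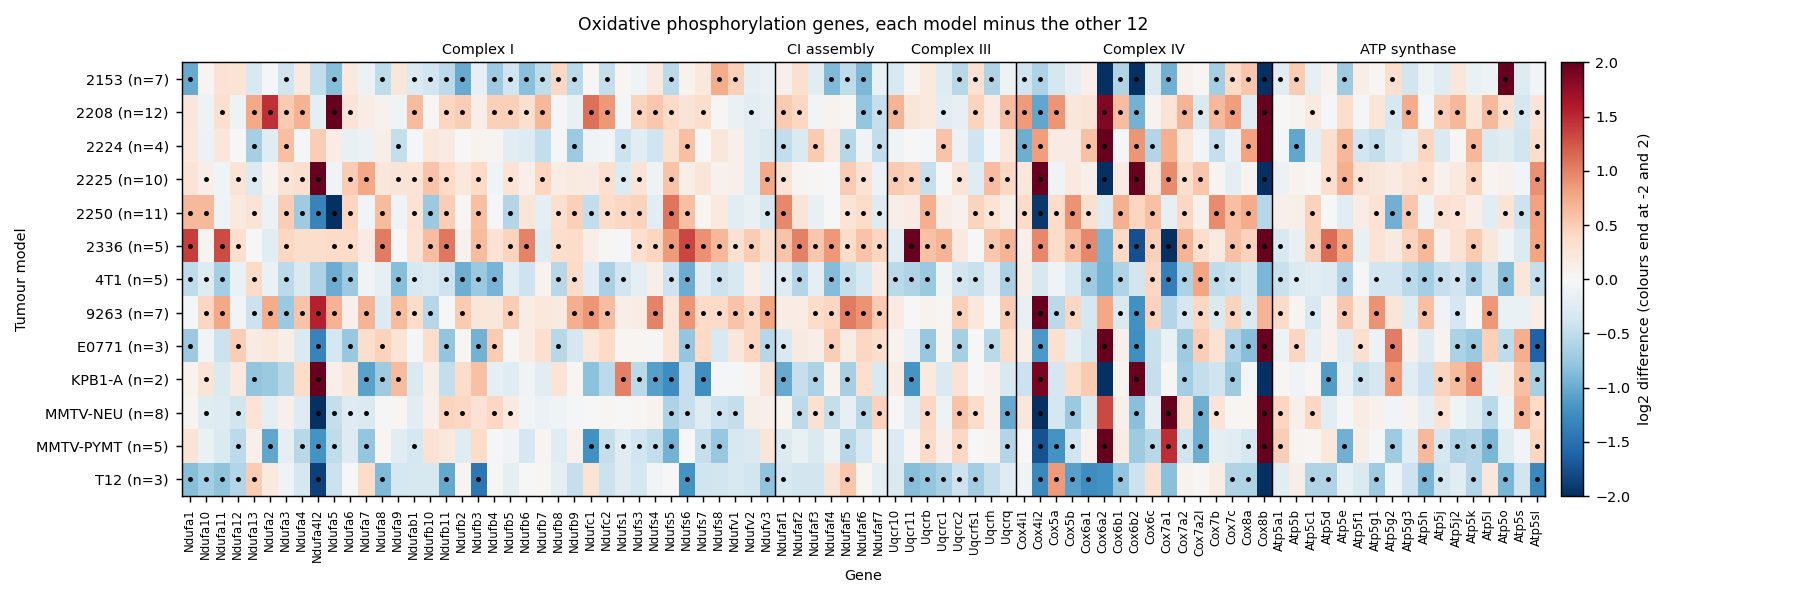
Each row is a tumour model and each column a tested member shown, grouped by symbol family under the complex it is named for. Colour is the log2 difference of the model from the other 12, drawn to 2 either way, and a dot marks an adjusted p under 0.05. The 2336 row is mostly red and the 4T1 and T12 rows mostly blue, while a few deep cells (Ndufa5 in 2208, Atp5o in 2153, Uqcr11 in 2336) stand apart from the rest of their rows.

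Each model was then set against the plain average of the other 12 models' means, each model weighing the same. In 2336, 50 of 86 members (58.1%) were higher and 4 lower, where 30.2% of all genes tested were higher and 25.4% lower. The higher members of 2336 came from every family: 21 of 38 Nduf, 7 of 7 Ndufaf, 5 of 8 Uqcr, 10 of 16 Cox and 7 of 17 Atp5 genes. In 2208, 41 members were higher and 9 lower (background 29.4% and 24.7%). In 9263 it was 39 and 11 (32.5% and 21.9%), in 2250 it was 39 and 11 (32.1% and 27.7%), and in 2225 it was 38 and 5 (34.2% and 26.8%). The median log2 difference of the members was 0.38 in 2336, 0.25 in 2208, 0.25 in 9263, 0.22 in 2225 and 0.19 in 2250, against -0.05 to 0.05 over all genes tested in these models.

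The other end was held by 4T1 and T12. In 4T1, 46 of 86 members (53.5%) were lower and 4 higher, where 23.6% of all genes were lower and 25.5% higher. The lower members of 4T1 were 19 Nduf, 4 Ndufaf, 6 Uqcr, 6 Cox and 11 Atp5 genes. In T12, 31 were lower and 3 higher (background 23.8% and 24.4%), with 11 Nduf, 1 Ndufaf, 5 Uqcr, 6 Cox and 8 Atp5 genes lower. The median difference was -0.38 in 4T1 and -0.37 in T12, against -0.08 and -0.09 over all genes. All libraries of T12 carry library numbers under 3000 in the labels, and with this number band as a term in the fit the count of lower members in T12 was 20. With limma on the authors' table the count of lower members in 4T1 was 30. For these and the other alternative fits below, the share of all genes called is not given here. A changed count is thus not a result about the members alone. Of 10 macrophage markers, 9 were higher in 4T1 and 9 in T12, with summed levels of 2603 to 5029 CPM and 5727 to 6763 CPM, and their part in these differences was not tested.

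In MMTV-PYMT, 32 members were lower and 8 higher (background 20.5% and 31%), and in 2153, 29 were lower and 9 higher (23.6% and 29.4%). Of the 38 Nduf genes, 16 were lower and 0 higher in MMTV-PYMT, and 15 were lower and 3 higher in 2153. Against the other FVB models alone, 14 members were lower and 4 higher in MMTV-PYMT. The share of all genes called against that reference is not given here. Without MMTV-PYMT replicate 4 the count of lower members was 21, and without replicate 5 the count of higher members was 5.

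The remaining models were mixed. MMTV-NEU had 17 members higher and 20 lower (background 34% and 28.4%), and 9 lower against the other FVB models. KPB1-A had 11 higher and 17 lower (24.9% and 14.4%), but 3 higher without its replicate 1 and 6 lower without its replicate 2. E0771 had 13 higher and 21 lower (29.4% and 26.9%), with 5 higher without replicate 2 and 9 and 10 lower without replicates 1 and 3. The members' median difference in E0771 changed sign with the scaling: it was 0.03 with TMM and -0.06 with upper-quartile scaling. In 2224, 13 were higher and 14 lower (24% and 14.8%), and 7 were higher without replicate 4 and 8 without replicate 3. Replicates 1 to 3 of 2224 held over 20 CPM of the muscle kinase Ckm (here by total counts, before TMM scaling), and with replicate 4 alone, and the libraries of other models over that level left out too, 1 member was higher and 4 were lower.

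**Figure D2:**
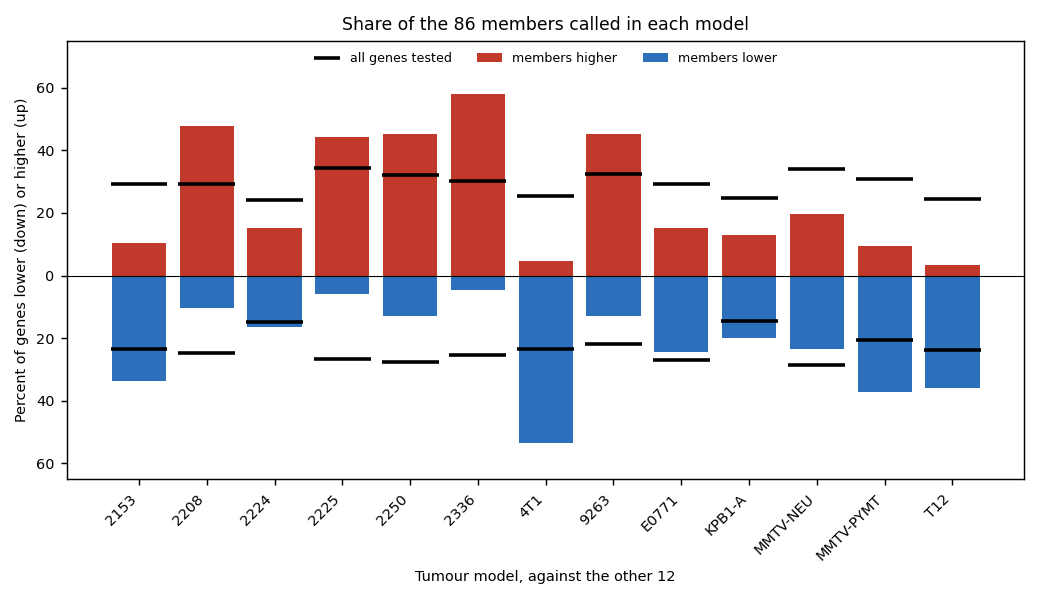
Bars give the percent of the 86 members that were higher (up) or lower (down) in each model against the other 12 at an adjusted p under 0.05. Black lines give the same percent over all 22847 genes tested. The bar of members higher in 2336 (58.1%) and that of members lower in 4T1 (53.5%) reach farthest past their lines.

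As a level, the mean log2 CPM over the 86 members (prior count 2) put the models in the order 2336 (5.94 ± 0.18), 2225 (5.84 ± 0.21), 2208 (5.77 ± 0.40), 9263 (5.75 ± 0.38), 2250 (5.66 ± 0.21), 2224 (5.59 ± 0.08), E0771 (5.57 ± 0.18), MMTV-NEU (5.49 ± 0.24), KPB1-A (5.46 ± 0.19), 2153 (5.38 ± 0.15), MMTV-PYMT (5.35 ± 0.20), 4T1 (5.23 ± 0.10) and T12 (5.22 ± 0.05; SD over libraries). Each gap between neighbours in this order was smaller than the larger SD of the pair, so the order of neighbours is not resolved. Tissue-restricted isoforms, such as Cox6a2 and Cox8b, weigh as much in this mean as abundant subunits. With them the mean of the Cox genes was highest in 2224 (5.04) and lowest in 2153 (4.16). Without them it was highest in 2250 (7.49) and lowest in MMTV-PYMT (6.65). The order over all members without these isoforms is not given here. Libraries within a model also differed. In 2208 the 3 libraries numbered 3000 and above lay at 5.93 to 6.44 and the 9 others at 5.36 to 6.38. The same 3 libraries had 833.2, 94.74 and 310.8 CPM of Ckm, against at most 19.1 CPM in the 9 others, and 14 of 15 muscle markers were higher and 0 lower in 2208. Among those 9, replicate 12 was highest in the members (6.38), and the next was replicate 6 (5.69). Replicate 12 is the only library labelled ROSEN, not CP, and was counted with the numbers under 3000. Its mean log2 CPM over the muscle markers was -1.9569, against 8.3305, 5.2964 and 6.655 in the 3 libraries. The members' mean itself includes the muscle isoforms Cox6a2, Cox7a1 and Cox8b, so it is not independent of muscle RNA. The Cox genes had 5.53, 5.75 and 5.82 in the 3 libraries and 4.10 to 5.06 in the 9 others. The Nduf genes had 5.93, 6.59 and 6.41 in the 3 libraries and 5.55 to 6.61 in the 9 others. The part of muscle in the members' level was not tested. In a fit without the 21 libraries over 20 CPM of Ckm before TMM scaling, 33 members were higher and 7 lower in 2208. Those 21 came from several models and held replicate 3 of 2208 and every E0771 library. The share of all genes called in that fit is not given here. The 5 MMTV-NEU libraries numbered 3000 and above lay at 5.20 to 5.45, below the 3 others at 5.64 to 5.88, and in 2153 the 3 numbered 3000 and above lay at 5.47 to 5.61, above the 4 others at 5.16 to 5.33. What the library numbers stand for is not given in the sources used here.

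The members did not move as a block. Over the 13 model means, the median Spearman correlation of a pair of members was 0.231 over 3655 pairs, 0.258 for pairs of the same family and 0.220 for pairs of different families, given as a description since all pairs share the same libraries. The model with the highest mean was 2336 for 21 members, 2208 for 13, 9263 for 11 and 2250 for 10. The lowest mean was in T12 for 18 members, in KPB1-A for 15, in 2153 for 9 and in 4T1 for 9. Single members that left the others behind in 1 model are described next, beginning with complex I.

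Ndufa5, an accessory subunit of the complex I matrix arm (6:24518666-24528013, minus strand, GRCm38), was far higher in 2208 than anywhere else. Its lowest, median and highest libraries in 2208 had 467.9, 595.4 and 1184 CPM, while the next model, 9263, had 34.49 to 88.04 CPM. No library of another model reached the range of 2208. The mean was 714 ± 246 CPM in 2208 (SD, n = 12) and 35.04 ± 14.4 CPM over the other 12 model means, a log2 difference of 4.48 (SE 0.10, edgeR adjusted p = 2.32e-51). The same gene was lowest in 2250, with 8.056, 9.95 and 14.27 CPM as lowest, median and highest, all under every other library, and a log2 difference of -2.13 (SE 0.13, edgeR adjusted p = 1.15e-24).

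The genes around Ndufa5 followed it. All 9 tested genes within 1 Mb were higher in 2208, with a median log2 difference of 3.93 where the median of the chromosome was 0.03. Among them Wasl, an actin regulator 137 kb away, averaged 1495 CPM in 2208 and 88.7 over the other models, and Cadps2 averaged 246 and 24.3 CPM. Per library, the median over the 3 of these neighbours with at least 5 CPM lay 3.73 to 5.11 above the other models on the log2 scale in all 12 libraries of 2208, and 2.07 to 2.89 below them in 2250. In 2250, 4 of the 9 neighbours were lower. DNA copy number was not measured here.

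In the ATP synthase, Atp5o, which encodes the oligomycin sensitivity protein at the top of the stator (16:91925214-91931687, minus strand), was the member that stood out in 2153. Its libraries there had 542 to 761.4 CPM, against 79.43 to 312.8 CPM in all others, with no overlap. The means were 644 ± 83.3 CPM (SD, n = 7) and 139 ± 32.6, a log2 difference of 2.25 (SE 0.078, edgeR adjusted p = 7.11e-39). Around Atp5o, 30 of 36 tested genes within 1 Mb were higher in 2153, with a median of 1.55, among them Son (1446 against 359 CPM), Gart (336 against 99.3) and Mrps6 (146 against 43.6). The annotation holds 2 genes of the name Atp5o, which share 49.3% of 31-base words with other transcripts, so how the counting split them is uncertain.

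Atp5b, the catalytic beta subunit (10:128083273-128090391, plus strand), went the other way in 2224. Its libraries there had 535.9, 542.4, 486 and 493.8 CPM, against a mean of 1062 ± 154 CPM over the other models, a log2 difference of -1.03 (SE 0.11, edgeR adjusted p = 1.49e-12). Within 1 Mb of Atp5b, 50 of 86 tested genes were lower, with a median of -0.87. In each library of 2224 the median of 57 neighbours lay 0.73 to 1.16 below the other models.

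**Figure D3:**
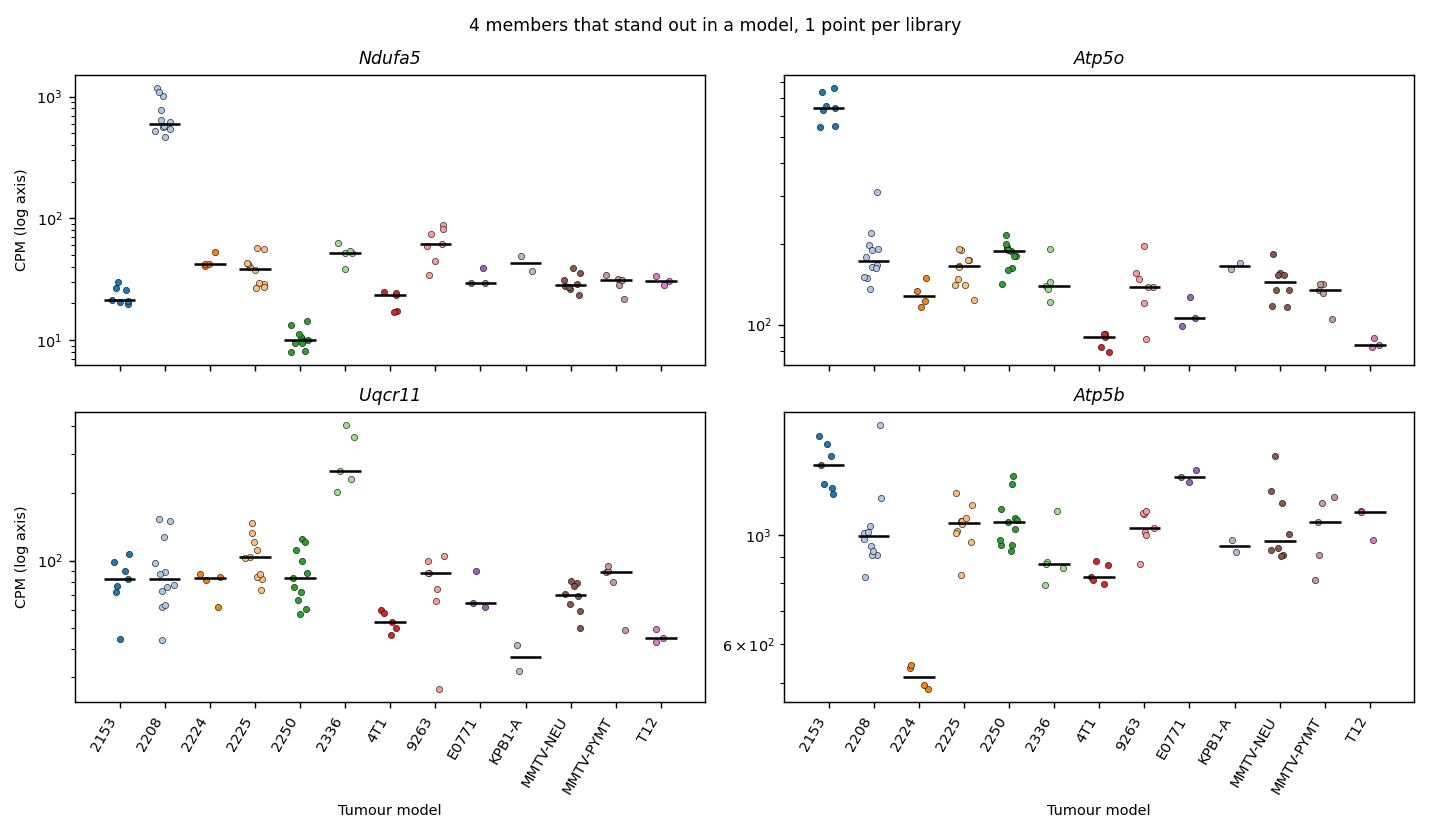
CPM per library on a log axis, by model, with a bar at the median, for Ndufa5, Atp5o, Uqcr11 and Atp5b. The 2208 libraries of Ndufa5 (467.9 to 1184 CPM) and the 2153 libraries of Atp5o (542 to 761.4 CPM) lie above all others, Uqcr11 is highest in 2336, and Atp5b is lowest in 2224 (486 to 542.4 CPM).

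A stretch of chromosome 10 holds members of 3 complexes that were high in 2336 and low in KPB1-A. Uqcr11, a small subunit of complex III (10:80402997-80406830, minus strand), had 232.7, 251.2, 202.2, 356.9 and 405.8 CPM in 2336, all above every other library, against 73.3 ± 19.5 CPM over the other models (log2 difference 2.04, SE 0.15, edgeR adjusted p = 3.16e-20). Ndufs7, which carries the last iron-sulfur cluster of complex I (10:80249121-80256794, plus strand), had 65.18, 77.27, 58.81, 114.1 and 111.2 CPM in 2336. Atp5d, the delta subunit of the central stalk (10:80138632-80145818, plus strand), had 355.7, 376.1, 315.3, 533.4 and 530 CPM, a log2 difference of 1.11. Replicates 4 and 5 of 2336 were the highest for all 3 genes.

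In KPB1-A the same genes were low. Uqcr11 had 41.93 and 32.02 CPM (log2 difference -1.18, SE 0.32, edgeR adjusted p = 0.00171), Ndufs7 had 29.75 and 13.77 CPM (-1.22, SE 0.33, edgeR adjusted p = 0.00191), and Atp5d had 109.1 and 93.41 CPM (-1.12). Without KPB1-A replicate 2, the adjusted p of Uqcr11 was 0.0689 and that of Ndufs7 was 0.168 by the same test. Their promoter windows, printed above, held the ETS word in Uqcr11, the YY1 word in Ndufs7 and none of the searched words in Atp5d. Of 121 tested genes within 1 Mb of Uqcr11, 74 were higher in 2336 (median 0.64) and 62 were lower in KPB1-A (median -0.77). Per library, the median of the 81 neighbours with at least 5 CPM lay 0.570, 0.625, 0.457, 1.025 and 1.076 above the other models in 2336, and 0.741 and 0.990 below them in KPB1-A.

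**Figure D4:**
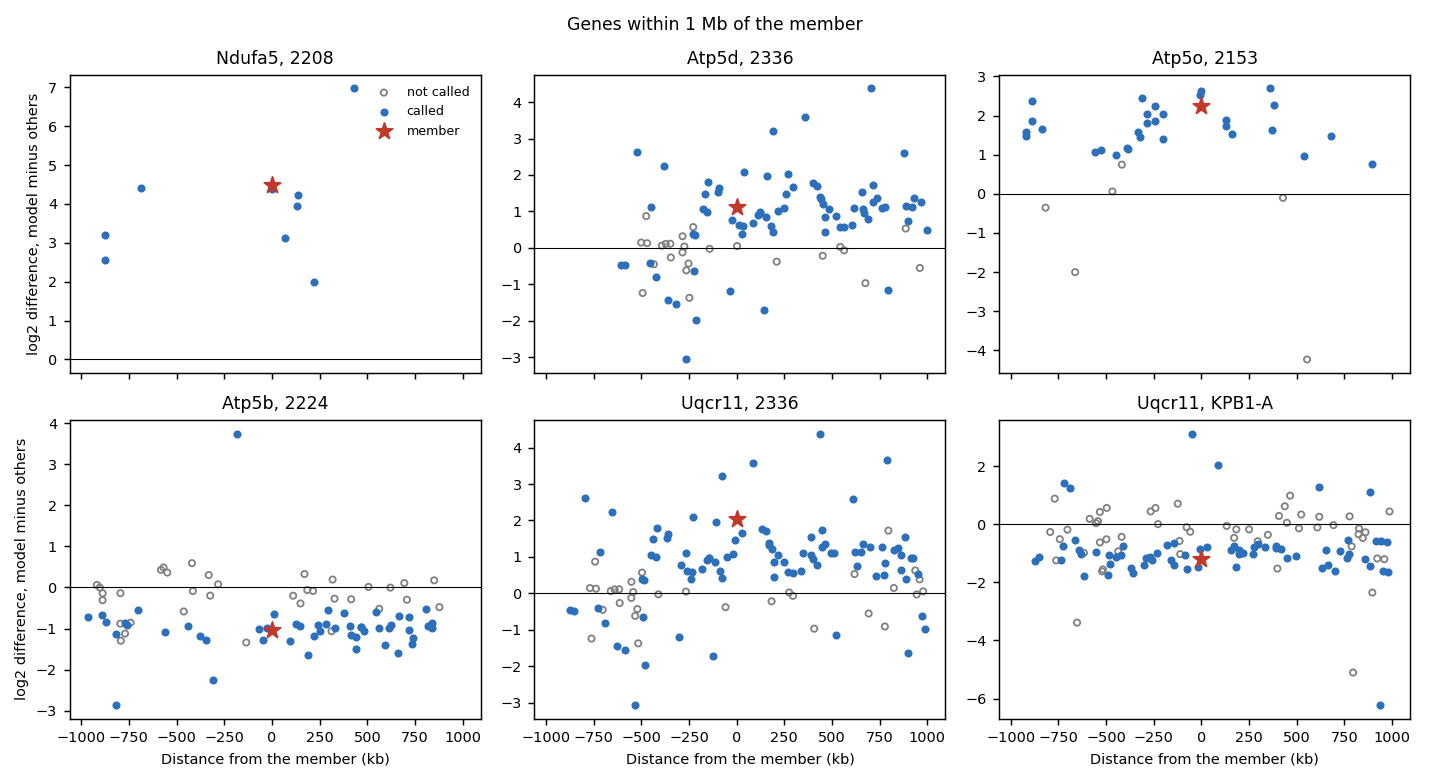
Each point is a tested gene within 1 Mb of a member, by its distance from the member in kb and its log2 difference in the named model from the other 12. Filled points passed an adjusted p of 0.05 and the star is the member. All 9 neighbours of Ndufa5 lie above 0 in 2208, most called neighbours of Uqcr11 and Atp5d in 2336 lie above 0, and those of Atp5b in 2224 and Uqcr11 in KPB1-A lie mostly below 0.

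Not every large change came with its neighbours. Ndufs6, a zinc-binding subunit of complex I, had 137.8, 158.7, 124.5, 103 and 101.5 CPM in 2336, against 53.8 ± 21.8 CPM over the other models (log2 difference 1.33), and Ndufa1, a small membrane subunit, averaged 65.5 ± 18.9 CPM in 2336 (SD, n = 5) and 26.3 ± 8.08 over the others (1.39, SE 0.18, edgeR adjusted p = 4.84e-10). Their surroundings did not shift by a like amount: the median of 23 tested genes within 1 Mb of Ndufs6 was 0.24 and that of 32 genes around Ndufa1 was -0.05. Ndufa2, another complex I subunit, had a log2 difference of -1.04 in MMTV-PYMT, while 51 of 75 tested genes around it were higher, with a median of 0.95. In 2208 Ndufa2 was high, with 58.24, 69.69 and 234.7 CPM as lowest, median and highest, against 40.2 ± 11.5 CPM over the others (1.46).

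Further members of complex I were high or low in particular models. In 2250, Ndufs5 had 36.86, 49.86 and 82.09 CPM as lowest, median and highest, against 29.2 ± 11.2 CPM over the others (log2 difference 1.07), and the assembly factor Ndufaf1 had 21.81, 26.91 and 32.48 CPM against 14.2 ± 3.92 (0.95). In 9263 the assembly factors Ndufaf5, which modifies Ndufs7, and Ndufaf6 were high, at 12.97 ± 3.47 CPM against 6.54 ± 1.89 (1.04) and 7.66 ± 1.18 CPM against 4.31 ± 1.27 (0.89; SD, n = 7 for 9263). For Ndufaf5, 6 of 8 genes within 1 Mb were higher too. In 2153, Ndufb2 had 15.13 to 17.91 CPM against 33.9 ± 7.54 (-1.01), the assembly factor Ndufaf4 had 8.289 to 14.32 CPM against 21.3 ± 5.88 (-0.89), and the core subunit Ndufs8 went up, with 56.57 to 91.08 CPM against 44.6 ± 11.7 (0.74). In 4T1, Ndufb2 had 19.15, 17.05, 15.07, 16.01 and 16.11 CPM (-0.98).

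T12 and E0771 had lows of their own. Ndufb3, of the complex I membrane arm, had 19.28, 18.36 and 21.04 CPM in T12, against 55.8 CPM over the other models (log2 difference -1.45), and Ndufs6 had 25.21, 23.18 and 26.15 CPM against 62.2 ± 28.0 (-1.19). Atp5sl had 8.699, 10.53 and 7.862 CPM in E0771 (-1.61) and 10.5, 11.91 and 10.79 CPM in T12 (-1.30), and 38.51 to 57.62 CPM in 2225. RefSeq lists Atp5sl as Dmac2, a factor for the distal membrane arm of complex I, so its place in the ATP synthase family comes from its older name. E0771 had high Atp5g2, which encodes the c ring of the ATP synthase and shares 40.2% of its 31-base words with other transcripts, at 151.5, 218.5 and 203.6 CPM against 97.9 ± 31.02 (1.03), and KPB1-A had high Ndufs1, the largest core subunit of complex I, at 171.4 and 168.1 CPM against 85.2 ± 13.5 (1.01).

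Complex IV showed similar contrasts among its widespread subunits. Cox4i1, the common form of subunit 4, had 126.4, 137.4, 115.8 and 127.2 CPM in 2224, against 254 ± 59.7 CPM over the others (log2 difference -0.97), and 264.6, 339.1 and 680.9 CPM as lowest, median and highest in 2208 (0.85). Cox8a had 275.6, 370.3, 364.2 and 387.6 CPM in 2224, against 208 ± 64.8 (0.81). Cox7b, a small subunit, averaged 158 ± 18.3 CPM in 2250 (SD, n = 11) and 84.9 ± 22.2 over the others (0.94). Cox5a, on the matrix side of complex IV, had 125.5, 124.5 and 135.1 CPM in T12, against 75.3 ± 25.4 (0.85), and 30.47, 28.73, 44.81, 23.84 and 46.79 CPM in MMTV-PYMT, against 83.1 ± 26.2 (-1.19). T12 thus held a high Cox5a while 6 other Cox genes were lower there.

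Some members had like levels in all 3 FVB models. Cox7a2l, which joins complexes III and IV into supercomplexes, had 71.33 to 124.2 CPM in MMTV-NEU, 76.15 to 103.2 CPM in MMTV-PYMT and 98.21 and 153.5 CPM in KPB1-A, and 255.6, 280.6, 268.5, 301.1 and 305.9 CPM in 4T1, which was 0.79 above the others on the log2 scale. Ndufs5 was low in all FVB models, at 12.37 to 27.56 CPM in MMTV-NEU, 13.36 to 17.39 CPM in MMTV-PYMT and 12.09 and 13.68 CPM in KPB1-A. Against the other FVB models alone, KPB1-A was not called for Ndufs5 (-0.43, edgeR adjusted p = 0.198). Uqcrc2, a core protein of complex III, was higher in MMTV-NEU (0.58) and MMTV-PYMT (0.42), and against the other FVB models its difference in MMTV-PYMT was -0.0137. Uqcrc2 had 131.0 and 159.0 CPM in KPB1-A. BALB/c models had such levels too, with 144.0 to 183.5 CPM of Uqcrc2 in 9263 and 105.6 to 203.6 CPM of Cox7a2l in 2208. Strain and model cannot be told apart in these comparisons.

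The isoform genes varied more than the widespread subunits and by other models. Ndufa4l2, a relative of the complex IV subunit Ndufa4 that is induced by low oxygen, had 46.94, 123.3 and 287.5 CPM as lowest, median and highest in 2225 (log2 difference 4.07, SE 0.21, edgeR adjusted p = 3.38e-28). KPB1-A had 82.57 and 34.49 CPM (2.75) and 9263 had 12.17, 22.17 and 45.96 CPM, while MMTV-NEU had 1.101, 2.438 and 4.949 CPM (-2.16). Per length, Ndufa4l2 was 39.9% of the summed level of the Ndufa4 pair in 2225, 21.8% in KPB1-A, 11.5% in 9263 and 2.25% in MMTV-NEU (means over libraries). Ndufa4 itself was 0.31 higher in 2225.

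Cox4i2, the lung form of subunit 4 that responds to low oxygen, was high in the same 3 models. It had 8.707, 19.23 and 43.4 CPM as lowest, median and highest in 9263 (log2 difference 3.70, SE 0.20, edgeR adjusted p = 3.59e-27), 6.339, 13.05 and 42.71 CPM in 2225 (3.25), and 9.797 and 5.812 CPM in KPB1-A (1.90). Without KPB1-A replicate 1 the difference there was 1.39 (edgeR adjusted p = 0.0545). MMTV-NEU had the lowest levels, 0.1707, 0.441 and 0.8064 CPM (-2.55). Per length, Cox4i2 made up 11.5% of the Cox4 pair in 9263, 6.55% in 2225, 4.26% in KPB1-A and 0.182% in MMTV-NEU.

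Markers of other cells were set beside these isoforms. Cox4i2 is known from pericytes, the cells that wrap small vessels, and the pericyte marker Rgs5 had medians of 457.9 CPM in KPB1-A, 262.9 in 9263 and 186.1 in 2225. Of 8 pericyte and smooth muscle markers, 6 were higher and 2 lower in 2225, 6 higher and 0 lower in 9263, and 4 higher and 0 lower in KPB1-A, and none of the 8 was higher in 2250, where 6 were lower. In 2224, with 1.829 to 6.063 CPM of Cox4i2, 4 of these markers were higher and 0 lower. Cox4i2 was itself called higher in 2224. It lost the call in 2 of 4 refits without a library (log2 difference 0.56 to 1.08). In MMTV-NEU, lowest in Cox4i2, 2 of these markers were higher and 2 lower. Their summed level was 839.6 to 1307 CPM in 2225, 773 to 1460 CPM in 9263 and 949 to 1191 CPM in KPB1-A. It was highest in 2336, at 2486 to 3822 CPM, where Cox4i2 had 3.01 to 7.226 CPM. Cox4i2 was called higher in 2336 too, and lost the call in 1 of 5 refits (0.69 to 1.07). The mean log2 CPM of the 8 markers was 6.15 in 9263, 6.13 in 2336, 6.07 in 2224, 6.06 in 2225 and 5.90 in KPB1-A. In the other models it was at most 5.13, in 2208. Of 12 genes induced by low oxygen, 7 were higher and 1 lower in 2225, 6 and 1 in 9263, and 1 and 0 in KPB1-A. Their part in the isoform differences was not tested.

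Cox6b2, the testis form of subunit 6b, had 12.07 and 8.086 CPM in KPB1-A (log2 difference 4.68, SE 0.30, edgeR adjusted p = 5.55e-23) and 1.846, 4.321 and 9.184 CPM as lowest, median and highest in 2225. Per length it was 6.64% of the Cox6b pair in KPB1-A and 3.38% in 2225. The 7 testis germ cell markers summed to at most 0.636 CPM in any library.

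The muscle isoforms differed widely between libraries of a model. Cox6a2, the heart and muscle form of subunit 6a, had 14.65, 4.287 and 11.1 CPM in E0771 (log2 difference 3.29, SE 0.97, edgeR adjusted p = 0.00261), and the muscle creatine kinase Ckm had 328.6, 53.16 and 186.2 CPM in the same libraries. In 2224, Cox6a2 had 5.785, 2.88, 14.57 and 0.7218 CPM and Ckm had 129.4, 27.63, 109.6 and 2.938 CPM. In both models the library lowest in Cox6a2 was also the lowest in Ckm, and E0771 has no library with Ckm at 20 CPM or less. Of the variance of Cox6a2, 23.8% lay between models, where the median member had 61.6%. Without the 21 libraries above that level, Cox6a2 in 2208 had a log2 difference of -0.71 and in MMTV-PYMT -1.83, both of opposite sign to the values with all libraries.

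Cox7a1, the muscle and brown fat form of subunit 7a, marked MMTV-NEU instead. It had 3.295, 7.064 and 8.927 CPM as lowest, median and highest there (log2 difference 2.67, SE 0.23, edgeR adjusted p = 4e-17) and 1.4, 1.817, 2.455, 1.47 and 8.172 CPM in MMTV-PYMT (1.48), and it was 9.59% of the Cox7a pair per length in MMTV-NEU and 6.64% in MMTV-PYMT. The lowest levels were in 2336, at 0.1368 to 0.52 CPM (-2.06). Without MMTV-PYMT replicate 5, the library with 8.172 CPM and with 356.5 CPM of Ckm, the difference in MMTV-PYMT was 0.69 (edgeR adjusted p = 0.0847). All 10 white adipocyte markers were higher in MMTV-NEU and in MMTV-PYMT, with summed levels of 25.5 to 1424 CPM and 19 to 1281 CPM. The median summed level was 377.8 CPM in MMTV-NEU but 49.6 CPM in MMTV-PYMT, against 46.5 CPM in 2336 and 285.1 CPM in E0771. In MMTV-PYMT the mean log2 CPM of these markers was 5.83 in replicate 5 and -2.50 to 1.77 in the others. Ucp1, the brown fat uncoupler, reached 33.3 CPM in 1 library of MMTV-NEU and 39.1 CPM in 1 library of MMTV-PYMT. Of 6 brown adipocyte markers, 2 were higher and 1 lower in MMTV-NEU, and 4 were higher and 1 lower in MMTV-PYMT. Of 15 muscle markers, 8 were higher in MMTV-NEU and 13 in MMTV-PYMT, and none was lower in either. The part of adipocytes in the level of Cox7a1 was not tested. Without the Ckm libraries, Cox7a1 in MMTV-NEU had a log2 difference of 2.81.

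**Figure D5:**
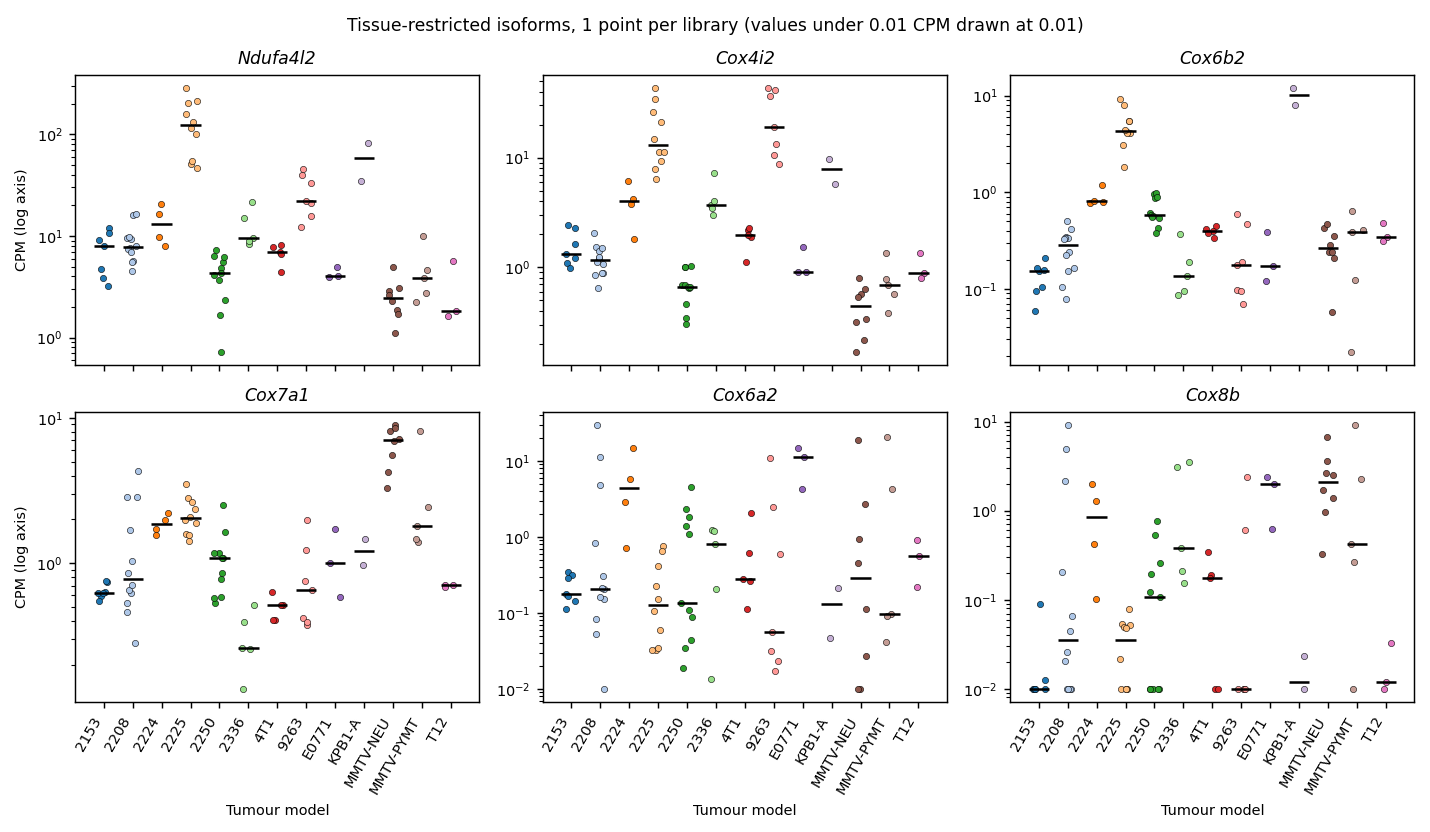
CPM per library on a log axis, by model, with a bar at the median, for 6 tissue-restricted isoforms; values under 0.01 CPM are drawn at 0.01. Ndufa4l2 and Cox4i2 are high in 2225, 9263 and KPB1-A, Cox6b2 is highest in KPB1-A, Cox7a1 is highest in MMTV-NEU, and Cox6a2 and Cox8b scatter widely within models.

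The transgenic FVB models, which differ in their driving oncogene, were compared with each other. In MMTV-NEU against MMTV-PYMT, 15 of 86 members were higher and 1 lower (background 12.5% and 15.1%). The libraries of these models overlapped in level for each of the called members. How often they overlapped over all called genes was not counted, so whether the overlap is particular to the members is not known. The higher members were 2 Nduf, 3 Ndufaf, 4 Cox and 6 Atp5 genes and no Uqcr gene. Ndufc1, a small complex I subunit, had 9.5, 11.79 and 35.35 CPM as lowest, median and highest in MMTV-NEU, against 7.248, 10.68, 10.31, 7.286 and 7.217 CPM in MMTV-PYMT (log2 difference 1.12, edgeR adjusted p = 0.00432). Atp5e (0.87), Cox5a (0.77), Atp5s (0.70) and Ndufb2 (0.60) were also higher. Cox7a1 passed narrowly, at 1.10 (edgeR adjusted p = 0.0481), and lost its call without MMTV-PYMT replicate 1, 2, 3 or 4 (0.90, 0.96, 1.03 and 0.93), while without replicate 5 it was 1.89. Without MMTV-PYMT replicate 1 the count of higher members was 5 and without replicate 4 it was 6, in a fit of these 13 libraries alone it was 2, and without the libraries over 20 CPM of Ckm it was 4. In the fit of these libraries alone, Ndufc1 (1.09, edgeR adjusted p = 0.056), Cox7a1 (1.08, 0.11) and Atp5h (-0.81, 0.0636) were not called, and without the Ckm libraries Ndufc1 was not called either (0.91, 0.0996). All 5 MMTV-PYMT libraries are numbered 3000 and above. In that band the mean log2 CPM of the members was 5.20 to 5.45 in MMTV-NEU (n = 5) and 5.11 to 5.55 in MMTV-PYMT (n = 5), while the 3 other MMTV-NEU libraries lay at 5.64 to 5.88. With a term for the band, 13 members were higher and 1 lower, and the part of the band was not tested further. By correlation over genes, the library nearest to MMTV-PYMT replicate 5 was of MMTV-NEU, not of its own model.

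Atp5h, the d subunit of the stator, was the lower member. It had 120.6, 131.3 and 142.3 CPM as lowest, median and highest in MMTV-NEU, against 127, 134.4, 490.6, 249 and 131.3 CPM in MMTV-PYMT (log2 difference -0.79, SE 0.19, edgeR adjusted p = 0.000625). Replicates 3 and 4 of MMTV-PYMT were high and the other three lay within or near the range of MMTV-NEU. Without replicate 3 the difference was -0.29 (edgeR adjusted p = 0.207). In replicates 3 and 4 the median of 44 genes within 1 Mb of Atp5h also lay above the other models, by 1.868 and 0.931 on the log2 scale, and in replicates 1, 2 and 5 it lay at -0.241, -0.153 and 0.219.

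Other mitochondrial gene lists gave a frame for the members. Of 77 mitochondrial ribosome genes, 46 were higher and 2 lower in 2336, and 0 were higher and 47 lower in 4T1, and 4 and 43 in T12. In MMTV-NEU 3 were higher and 53 lower, where the members were mixed. In 2153, where more members were lower than higher, 23 were higher and 13 lower. Of 13 genes of the tricarboxylic acid cycle, 9 were higher and 3 lower in 2336, 0 and 9 in 4T1, and 1 and 8 in T12. These genes did not follow the members in every model. It was 8 and 2 in 2250 and 5 and 4 in 9263, but 2 and 6 in 2208 and 2 and 4 in 2225. In MMTV-PYMT and 2153, where more members were lower than higher, it was 5 and 3 and 7 and 4. Of 8 complex II genes, 3 were higher and 4 lower in 2336 and 0 and 3 in T12. Among 27 assembly factors of complexes III to V, 12 were higher and 3 lower in 2336, 1 and 8 in 4T1, and 2 and 11 in T12. Of 101 cytosolic ribosome genes, 33 were higher and 12 lower in 2336, 14 and 14 in 4T1, and 84 and 3 in 2225.

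Of 16 tested regulators of mitochondrial biogenesis, 6 were higher and 2 lower in 2336, 8 and 2 in 9263, 2 and 6 in 4T1, 2 and 7 in T12, 3 and 7 in MMTV-NEU, and 3 and 3 in MMTV-PYMT. The other models had 2 to 7 higher and 2 to 6 lower. Their median log2 difference was 0.13 in 2336, 0.22 in 9263, -0.17 in 4T1 and -0.31 in T12. Ppargc1a, the PGC-1 alpha coactivator, had a median of 0.051 CPM in 4T1, 0.090 in E0771 and 0.379 in T12, and of 27.2 CPM in MMTV-NEU, 22.9 in KPB1-A and 19.0 in 2153. The log2 difference was -6.19 in 4T1 and 2.89 in MMTV-NEU, a model whose members were mixed. Nrf1 was 1.82 higher in 2250 (SE 0.050, edgeR adjusted p = 2.64e-45) and 0.83 lower in MMTV-NEU. Tfam, which packages and transcribes the mitochondrial genome, was 0.85 higher in 2336 and 0.80 lower in MMTV-PYMT. The uncoupling protein gene Ucp2 averaged 1121 ± 660 CPM in MMTV-PYMT (SD, n = 5) and 166 ± 32.6 CPM in 2336 (SD, n = 5).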

How the data were processed

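RNA of 82 mammary tumours was sequenced from TruSeq mRNA libraries, per the labels' protocols. The deposited gene table holds expected counts, for which the submitters' processing notes name STAR, SAMtools, Picard, Salmon and build mm10, without versions or roles. Of its values, 85.5% were whole within 0.0005 and 52.7% were 0. The authors also deposited a normalized signal per gene. Its values equal the count over the upper quartile (percentile 75) among genes with a count in that library, multiplied by 1000, with 1 standing in for 0. Strandedness is not given in the sources used here, so overlapping genes cannot be told apart.

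Expected counts were rounded and fitted with edgeR 4.0.16 (R 4.3.3). Genes were kept by filterByExpr over models (minimum count 10, minimum total 15), libraries were scaled by TMM, and robust quasi-likelihood fits had 1 mean per model and 69 residual degrees of freedom. Models were tested together (F test), each against the average of the others, and MMTV-NEU against MMTV-PYMT. A gene was called at an adjusted p under 0.05 (Benjamini-Hochberg over all 22847 genes tested). Fits of this design were tested on simulated data. Alternatives used limma 3.58.1, DESeq2 1.42.0, other scalings, other reference models and left-out libraries.

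Members and lists were chosen with earlier results of these data known. Named members were fixed subunits and isoforms, the 3 largest passing changes each way per model whose libraries all lay on the same side of the others' mean (at least 5 CPM), and the 10 widest and 5 narrowest members. A member that the rule names is counted among the members but not reported here. Neighbouring genes, the members called between MMTV-NEU and MMTV-PYMT, and the regulators were chosen after their values were seen. Gene positions are from GENCODE M21 (GRCm38, the assembly behind mm10), which placed 87 of the 88 members. Comparisons of single models share most of their libraries, so their counts are not independent of each other.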

Additional observations from a re-analysis of the deposited data

Results flagged for a closer look

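In groups of 4 to 10 libraries, the gap of the highest or lowest library to its nearest neighbour was set against Dixon's 95% critical value, and 13 of 112 tested groups passed, where chance passes about 1 in 20. In 9263, replicate 1 stood below the other libraries in the mean log2 CPM of the Nduf genes (5.135, against 5.8 to 6.303) and of the Uqcr genes (5.873, against 6.571 to 7.028). Ndufa5 had 53.2 CPM in 2224 replicate 2, against 40.98 to 42.32 in the others, and Cox4i2 had 7.226 CPM in 2336 replicate 4, against 3.01 to 4.062. Cox6b2 had 1.187 CPM in 2224 replicate 1.

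The muscle isoforms gave most of the rest. MMTV-PYMT replicate 5 stood above the other MMTV-PYMT libraries in Cox6a2 (20.82 CPM), Cox7a1 (8.172 CPM) and Cox8b (9.153 CPM), and had 356.5 CPM of the muscle kinase Ckm. Replicate 3 of 9263 did so in Cox6a2 (11.01 CPM) and Cox8b (2.396 CPM), MMTV-NEU replicate 6 in Cox6a2 (18.99 CPM), 4T1 replicate 1 in Cox6a2 (2.055 CPM) and 2153 replicate 3 in Cox8b (0.0904 CPM). The part of muscle tissue in these values was not tested.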

How the results depend on the processing

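No paired analysis was possible because the replicate numbers follow accession order and pair no libraries. The counts of members moved by more than 1.5 times under these settings. The share of all genes called under each setting is not given here, so these moves are not particular to the members. With a term for the library number band, 14 members were higher in 2153, 2 higher in 4T1 and 20 lower in T12. Without the 21 libraries with over 20 CPM of Ckm before TMM scaling, a setting added after seeing the data, 1 was higher and 4 lower in 2224, 2 lower in 2225, 3 higher in MMTV-PYMT, and 4 higher and 0 lower in MMTV-NEU against MMTV-PYMT. With limma on the authors' table, 30 were lower in 4T1, 6 higher in E0771, 5 higher in MMTV-PYMT, 5 higher in T12 and 9 higher in MMTV-NEU against MMTV-PYMT. Against models of the same strain, 9 were lower in MMTV-NEU and 4 higher and 14 lower in MMTV-PYMT. Without the library nearest to another model, also added later, 5 were higher in MMTV-PYMT. That library was MMTV-PYMT replicate 5, and its nearest library was of MMTV-NEU. In a fit of MMTV-NEU and MMTV-PYMT alone, 2 were higher in MMTV-NEU. DESeq2, its size factors, upper-quartile scaling and no filter left every count they gave within 1.5 times.

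Leaving out a library gave 7 to 10 members higher and 10 to 17 lower in 2224, 40 to 50 and 4 to 5 in 2336, 1 to 4 and 35 to 42 in 4T1, 5 to 13 and 9 to 21 in E0771, 3 to 8 and 6 to 16 in KPB1-A, 5 to 9 and 21 to 30 in MMTV-PYMT, 2 to 3 and 23 to 25 in T12, and 5 to 14 and 0 to 2 in MMTV-NEU against MMTV-PYMT. KPB1-A then has 1 library, assumed to vary like the other models.

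Reversed were Uqcrc2 in MMTV-PYMT against its strain (-0.0137), Cox6a2 in 2208 (-0.7092) and MMTV-PYMT (-1.8308) and Cox8b in 2208 (-1.7183) without the Ckm libraries, and Cox8b in 2208 with limma (-0.2312). Of 104 differences of named members, 62 kept direction and call under every alternative run for them, among them Ndufa5 in 2208 (4.40 to 4.6033), Atp5o in 2153 (2.23 to 2.27) and Uqcr11 in 2336 (1.89 to 2.14). Single libraries were left out only in 2224, 2336, 4T1, E0771, KPB1-A, MMTV-PYMT and T12. Ndufa5 in 2208 and Atp5o in 2153 thus faced fewer alternatives than Uqcr11 in 2336. The mean log2 CPM of the Cox genes without the isoforms was 6.8948 in 2153, 7.3401 in 2208, 6.9774 in 2224, 7.1325 in 2225, 7.4930 in 2250, 7.4425 in 2336, 6.8212 in 4T1, 6.9245 in 9263, 6.8452 in E0771, 6.7740 in KPB1-A, 6.8321 in MMTV-NEU, 6.6455 in MMTV-PYMT and 6.7666 in T12, and that of the Nduf genes 5.3834 in T12. With a prior count of 0.5 the Cox mean was 4.0367 in 2153 and 4.1106 in T12, and with size factors 4.2417 in T12. The cause of these changes was not tested, apart from fewer libraries or genes where a setting removes them.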
